A study of Rattus norvegicus with 6 samples.

Results

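The genes that make, break down, sense and anchor cyclic AMP (cAMP) were compared between 2 fractions of the rat renal inner medulla. Members were all genes of the Affymetrix Rat 230 2.0 array whose single symbol in the probe annotation begins with Adcy, Pde, Prkac, Prkar or Akap in the pattern used for adenylyl cyclases, phosphodiesterases, subunits of cAMP-dependent protein kinase (PKA) and A-kinase anchoring proteins (AKAPs). This gave 81 probe sets of 52 genes, out of 14217 genes with a single symbol: 8 adenylyl cyclases, 23 phosphodiesterases, 6 PKA subunits and 15 AKAPs. Where a gene had several probe sets, the brightest one (by mean log2 value on the 6 arrays) stood for it. The name alone made Pde4dip a member, although it encodes a phosphodiesterase-binding anchoring protein and no enzyme. A probe set annotated to both Pde11a and Cyct was not used.

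The IMCD fraction was enriched for inner medullary collecting duct cells by digestion and slow spinning. The other fraction, nonIMCD, was collected from what the spin left in suspension. Both came from male Sprague-Dawley rats (aged 10 weeks by the labels, except 6 weeks for the first IMCD replicate), and all animals had received 1 mg furosemide, a loop diuretic, 30 min before death. The tissue was kept for 75 min at 37 °C in collagenase B and hyaluronidase. Each fraction was hybridised to 3 arrays, and the study speaks of 7 rats and of 3 pairs of fractions, with no label saying how rats were shared among arrays. The p-values therefore measure the spread between arrays, part of which may be technical.

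Vasopressin acts on the collecting duct through the V2 receptor, the stimulatory G protein and membrane adenylyl cyclases, which make cAMP from ATP. Cyclic AMP frees the catalytic subunits of PKA from their regulatory subunits, and the kinase then acts on targets that include the water channel aquaporin-2 and the transcription factor CREB. Phosphodiesterases end the signal by hydrolysing cAMP, cGMP or both. AKAPs hold PKA, often together with a phosphodiesterase, at particular places in the cell.

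Of the 52 members, 9 were higher and 10 lower in IMCD by limma's test at an adjusted p under 0.05, and 33 did not pass. These are 17.3% and 19.2% of the members (36.5% in either direction), and the background over all 14217 genes was 10.0% higher and 15.7% lower (25.8% in either direction). All IMCD arrays lay above all nonIMCD arrays for 15 members and below them for 14, where the background was 20.0% above, 28.7% below and 48.7% not overlapping either way. Most calls lay in the phosphodiesterases, with 7 higher and 4 lower of 23. The cyclases had 0 higher and 3 lower of 8, the PKA subunits 1 higher and 1 lower of 6, and the AKAPs 1 higher and 2 lower of 15. The largest differences were an 8.21-fold higher level of Pde1a and a 6.46-fold lower level of Pde7a in IMCD. The median log2 difference was 0.03 over the members and -0.09 over all genes.

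**Figure D1:**
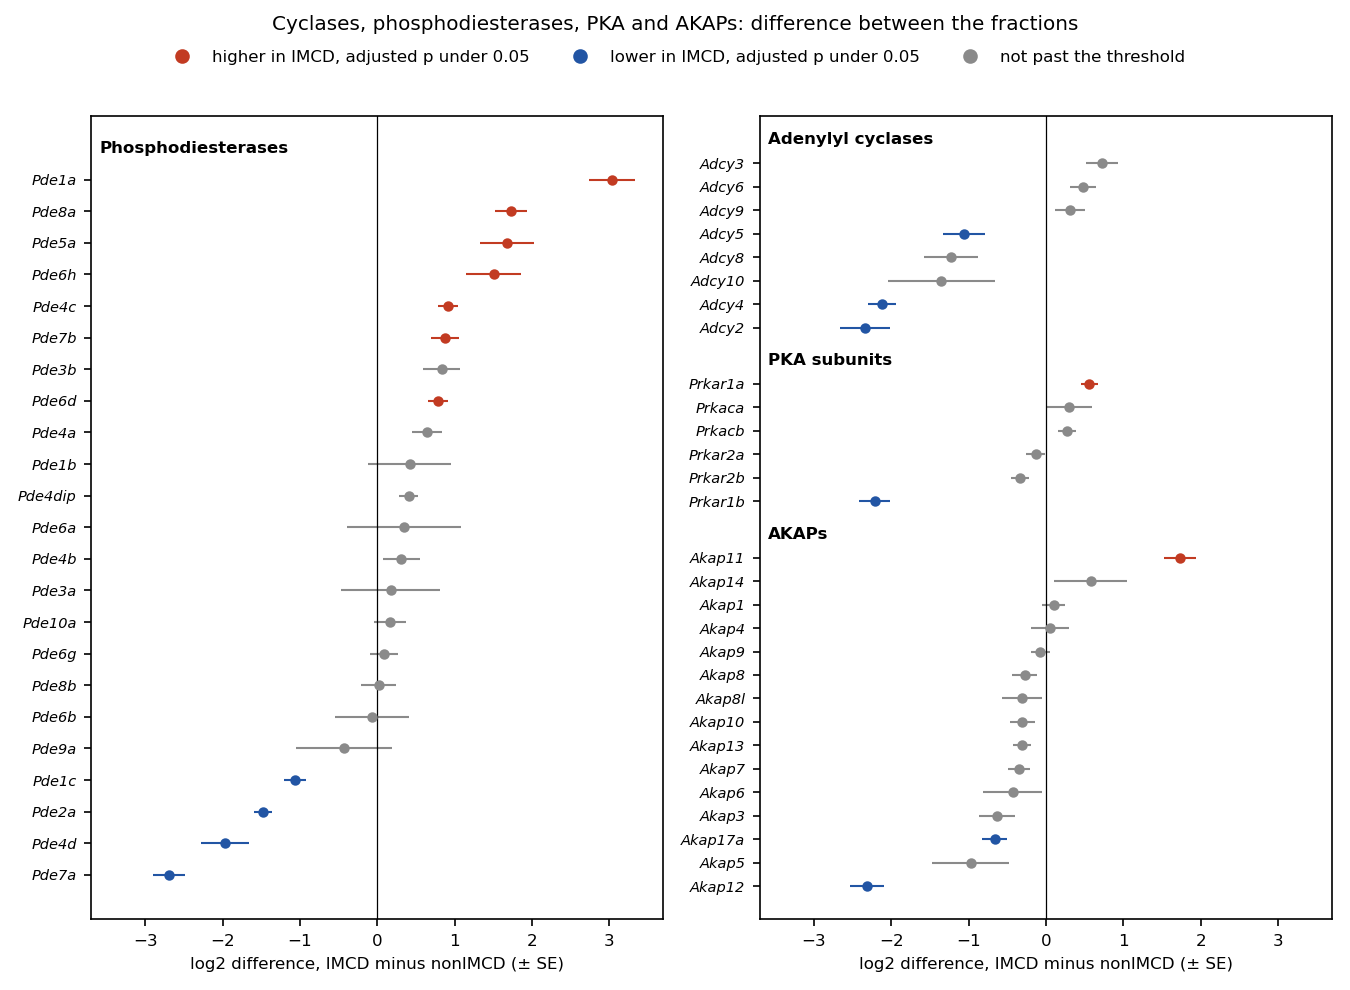
Log2 difference in intensity between IMCD and nonIMCD for each of the 52 members, from the limma fit on all 6 arrays, with its standard error as a bar and genes ordered by difference within each family. Red points are the 9 members higher in IMCD, blue points the 10 lower and grey points the 33 that did not pass, with Pde1a at the upper and Pde7a at the lower end.

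Direction depended in part on how the arrays were scaled. Higher calls made up 47.4% of the members' calls as deposited, 65.2% (15 and 8 calls) under median centring of the arrays and 60.0% (12 and 8 calls) after quantile normalization. Over all probe sets these shares were 39.0%, 67.0% and 52.1%. These scalings put the median difference of all probe sets at 0.19 and 0.06, against -0.10 as deposited. Of the 19 called members, 12 kept their call under all 14 alternative settings in which they were tested, 5 of them higher (Pde1a, Pde8a, Pde4c, Pde6d and Akap11) and 7 lower (Adcy2, Adcy4, Pde2a, Pde4d, Pde7a, Prkar1b and Akap12).

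The fractions also differed in other measures. Markers of the collecting duct principal cell were above the negative control on all 6 arrays, and 16 of 18 were higher in IMCD, with a summed intensity of 317693 to 334708 in IMCD and of 164678 to 205865 in nonIMCD. The water channel Aqp2 had intensities of 47833, 53804 and 56084 in IMCD and of 37998, 41265 and 50634 in nonIMCD, bright in both fractions and overlapping (0.29, adjusted p = 0.261). Other scalings gave it a call, at 0.58 with median centring (adjusted p = 0.0403) and 0.45 with quantile normalization (adjusted p = 0.0406). All 13 measured endothelial markers were lower in IMCD (sums of 16977 to 21239 and of 85785 to 90678), as were 14 of 17 leukocyte markers (10671 to 12338 and 158033 to 159823), of which Aif1, Itgam, Itgax and Cd3d were not above the negative control on any IMCD array. Lower too were 8 of 15 pericyte, muscle and interstitial markers (5892 to 6487 and 35592 to 39417) and 4 of 8 thick limb markers (4280 to 9275 and 17826 to 22222). Of the thin limb markers 4 of 6 were lower (70711 to 76219 and 113708 to 143561). Most of their IMCD sum came from the uncalled Slc14a2 and Cldn4 (means of 34804 and 32002), brighter on every IMCD array than on any nonIMCD array. Slc14a2 was also on the principal cell list. Epha7 was not above the negative control on any IMCD array, and the uncalled Lum on no array of either fraction. In contrast, 3 of 9 intercalated cell markers were higher (34113 to 40586 and 17736 to 24451). None of these markers had an intensity of 0. The log2 ratio of 3' to 5' control probe sets was 0.69 ± 0.03 in IMCD and 1.35 ± 0.14 in the nonIMCD arrays (SD, n = 3), with no overlap. What part cell makeup and RNA quality had in the members' differences was not tested, and fewer cells of a type cannot be told apart from less RNA per cell.

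Dim signals were judged against a bacterial control transcript (TrpnX) whose 3 probe sets reached at most 78.4 on any array. That value came from nonIMCD replicate 1, and the highest on each other array was 13.0 to 45.8. A signal not above 78.4 can thus lie above the control of its own array. Of the 52 members, 35 lay above 78.4 on all 6 arrays and 5 (Adcy8, Akap4, Pde3a, Pde6b and Pde7b) on none. Intensities of different probe sets are not comparable, so each test compares a gene only with itself across arrays. The marker sums above are weighted toward their brightest probe sets.

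Promoter sequences were available for 40 of the 52 members (52 windows of 300 bases, each with 250 before and 50 after a transcription start), from RefSeq on the GRCr8 assembly. Since PKA phosphorylates CREB, the windows were searched on both strands for the cAMP response element TGACGTCA and its half-site TGACG, which lies inside it, and for the motif GATAAG of the GATA factors. The full element was in 1 member window of 52 (1.92%), that of Akap17a, against 1.83% of all 33469 windows. The half-site was in 13 windows (25%) of 11 members, against 21.2% of all windows, and GATAAG was in 4 (7.69%), against 7.05%. The shares of the members were thus near those of all promoters. Among called members the half-site was in 2 of 6 higher genes with a promoter (Akap11 and Pde8a) and 2 of 9 lower genes (Akap17a and Pde4d), and GATAAG in 0 higher and 2 lower genes (Adcy4 and Pde2a). Of these, 4 windows are printed as examples of each motif in called members, and those of Pde4d and Pde2a are not. The motif is in capitals: the half-site in Pde8a and Akap11, the full element in Akap17a, and GATAAG, read on the other strand as CTTATC, in Adcy4. The coordinates are GRCr8, and each is printed 5' to 3' along its gene. A match of letters is a description and does not show that a factor binds there.
Pde8a (chr1:144575219-144575518, plus strand): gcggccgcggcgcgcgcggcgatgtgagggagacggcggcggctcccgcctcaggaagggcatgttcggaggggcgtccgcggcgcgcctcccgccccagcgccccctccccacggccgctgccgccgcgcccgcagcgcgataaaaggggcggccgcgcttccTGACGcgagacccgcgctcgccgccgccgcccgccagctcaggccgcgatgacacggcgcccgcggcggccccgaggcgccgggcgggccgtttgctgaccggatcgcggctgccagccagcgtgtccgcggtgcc
Akap11 (chr15:60365286-60365585, minus strand): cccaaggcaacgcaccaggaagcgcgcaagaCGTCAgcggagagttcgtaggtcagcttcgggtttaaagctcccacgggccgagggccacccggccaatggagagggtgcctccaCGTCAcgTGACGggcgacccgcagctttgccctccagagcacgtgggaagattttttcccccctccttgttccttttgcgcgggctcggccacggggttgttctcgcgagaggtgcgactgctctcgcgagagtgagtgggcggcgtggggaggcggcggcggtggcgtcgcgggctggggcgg
Akap17a (chr12:21428198-21428497, minus strand): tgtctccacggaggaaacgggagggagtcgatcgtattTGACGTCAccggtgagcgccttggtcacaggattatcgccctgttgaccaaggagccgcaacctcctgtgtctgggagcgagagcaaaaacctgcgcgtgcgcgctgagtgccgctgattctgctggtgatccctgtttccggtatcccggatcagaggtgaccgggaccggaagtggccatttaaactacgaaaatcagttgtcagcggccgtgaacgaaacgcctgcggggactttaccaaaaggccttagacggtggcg
Adcy4 (chr15:33251977-33252276, minus strand): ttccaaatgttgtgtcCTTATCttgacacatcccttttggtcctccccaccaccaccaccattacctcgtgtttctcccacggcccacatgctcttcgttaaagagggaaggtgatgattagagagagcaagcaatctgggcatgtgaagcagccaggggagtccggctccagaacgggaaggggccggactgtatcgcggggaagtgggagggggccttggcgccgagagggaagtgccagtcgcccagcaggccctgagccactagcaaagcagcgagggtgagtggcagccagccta

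Among the adenylyl cyclases, Adcy4 and Adcy2 were lower in IMCD. Both encode enzymes that G protein beta-gamma subunits stimulate together with the stimulatory alpha subunit. Adcy4 (probe set 1368370_at) had 299, 366 and 426 on the IMCD arrays and 1414, 1751 and 1710 on the nonIMCD arrays. The groups did not overlap, and the log2 difference was -2.12 ± 0.18 (SE, adjusted p = 0.00114), a 4.34-fold lower level. Adcy2 (1367978_at) had 65.2, 57.6 and 139 in IMCD and 541, 379 and 534 in nonIMCD. The groups were again separate (-2.34 ± 0.33, adjusted p = 0.00565), with 1 of 3 IMCD arrays above the negative control.

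Adcy6, the calcium-inhibited cyclase that mice need for urine concentration, was bright in both fractions. Its brightest probe set (1367644_at) had 6825, 7234 and 6650 in IMCD and 4848, 6022 and 4127 in nonIMCD. Every IMCD array lay above every nonIMCD array, but the difference of 0.48 ± 0.17 did not pass (adjusted p = 0.105). A second Adcy6 probe set (1386876_at), with 1876, 1605 and 1401 in IMCD and 717, 836 and 716 in nonIMCD, was higher by 1.08 ± 0.16 (adjusted p = 0.00676). The 2 probe sets agree in direction and differ in size by more than either standard error. The first passed with each array centred on its median (0.77, adjusted p = 0.0262), with dim probe sets left out (adjusted p = 0.0485), with an intensity trend (adjusted p = 0.0156) and when the probe sets were averaged (0.78, adjusted p = 0.0103).

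Adcy3, a cyclase best known from olfactory neurons and found in many tissues, had 993, 774 and 1261 in IMCD and 573, 647 and 562 in nonIMCD. All IMCD arrays were above all nonIMCD arrays, and the difference of 0.72 ± 0.20 just missed the threshold (adjusted p = 0.055). Under 7 of the 14 alternatives it passed, among them median centring (1.01, adjusted p = 0.0178), quantile normalization (0.91, adjusted p = 0.0284) and the fit without IMCD replicate 2 (0.90, adjusted p = 0.036). Adcy9, a widely expressed cyclase, had 243, 367 and 277 in IMCD and 242, 258 and 200 in nonIMCD and did not pass (0.31, adjusted p = 0.32).

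The remaining cyclases were dim. Adcy5, the close relative of Adcy6 known from heart and striatum, had 29.5, 63.5 and 44.4 in IMCD, none above the negative control, and 86.6, 146 and 104 in nonIMCD. It was called lower (adjusted p = 0.0417), at least 1.33-fold against the negative control level. Leaving out IMCD replicate 1 or 3 ended the call (adjusted p = 0.106 and 0.104), as did leaving out nonIMCD replicate 1, 2 or 3 (adjusted p = 0.0641, 0.107 and 0.0893). It was lost also under median centring, quantile normalization, a pseudocount of 1 and an intensity trend (adjusted p = 0.0527 to 0.0876). The calcium-calmodulin cyclase Adcy8 lay at 4.36 to 33 in IMCD and 62.9 to 72.2 in nonIMCD, not above the negative control on any array (adjusted p = 0.0553, and 0.0282 without IMCD replicate 3). Adcy10, the soluble cyclase activated by bicarbonate, had 10.9, 120 and 16 in IMCD and 188, 71.7 and 94.1 in nonIMCD (-1.36, adjusted p = 0.226). Without IMCD replicate 2 its difference was -2.09 (adjusted p = 0.0314), so that array decides its call. The median over the 8 cyclases was -1.15, and it was 0.31 over those left after dim probe sets were removed.

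**Figure D2:**
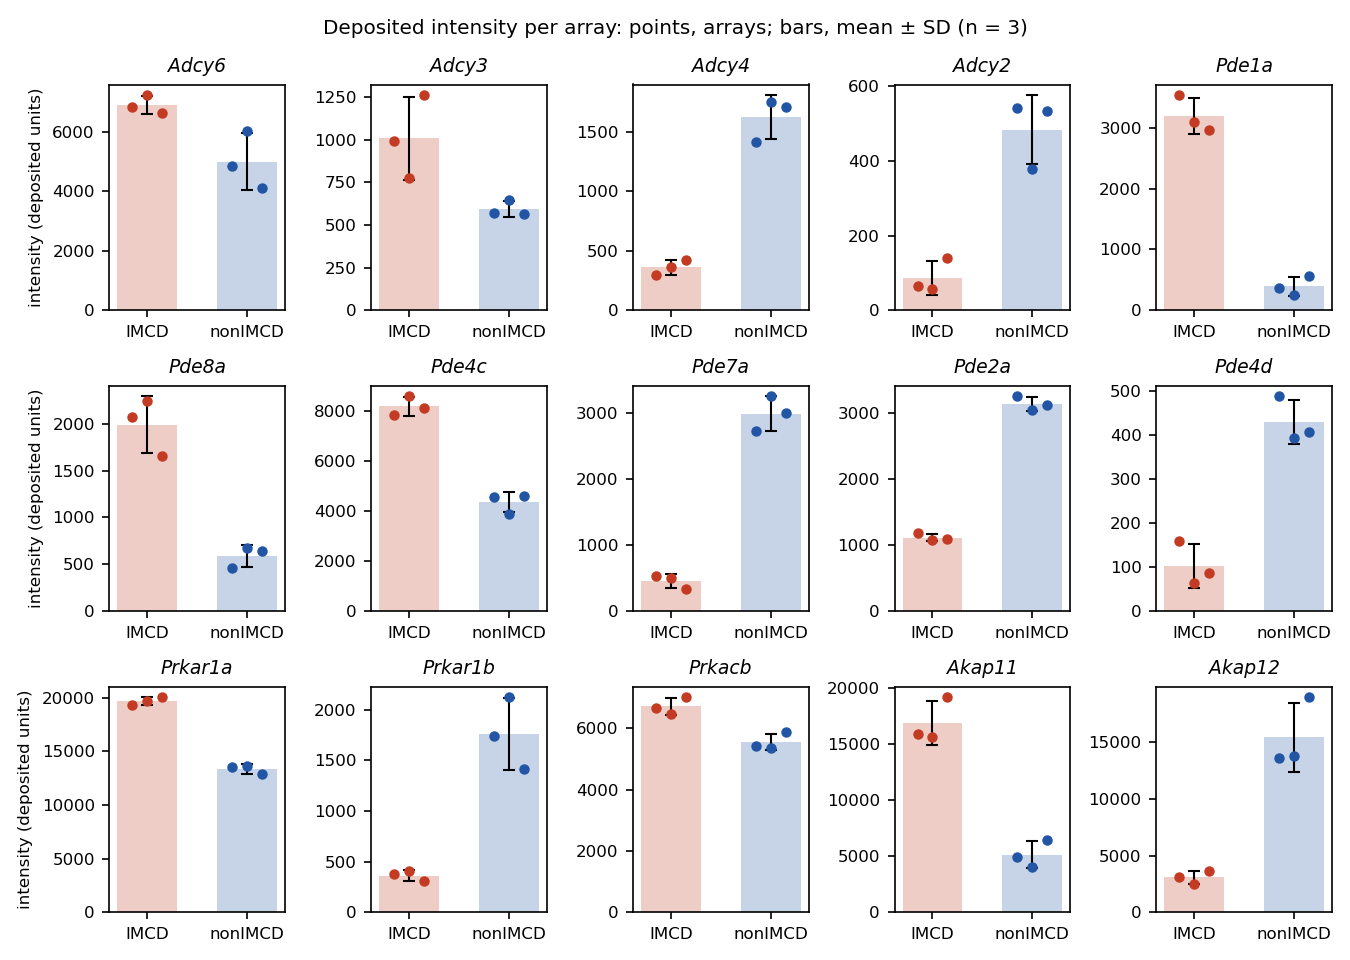
Deposited intensity on each array for 15 members, with IMCD arrays in red on the left and nonIMCD arrays in blue on the right of each panel, bars at the mean and error bars of 1 SD (n = 3). Each panel has its own scale from 0. Only members whose groups did not overlap are shown, so the separation in all 15 panels follows from the choice. Of all 52 members 23 overlapped, and over all genes 48.7% were without overlap. Adcy4, Adcy2, Pde7a, Pde2a, Pde4d, Prkar1b and Akap12 are lower in IMCD.

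Phosphodiesterases are described by biochemical family. In family 1, which calcium and calmodulin activate, Pde1a and Pde1c differed in opposite directions. Pde1a (1369172_at), whose product prefers cGMP, had 3532, 3093 and 2968 in IMCD and 373, 248 and 564 in nonIMCD. The difference was 3.04 ± 0.30 (SE, adjusted p = 0.0018), and the lowest IMCD array lay far above the highest nonIMCD array. Pde1c (1388020_a_at), whose product cleaves both nucleotides, had 269, 251 and 213 in IMCD and 513, 506 and 563 in nonIMCD (-1.06 ± 0.14, adjusted p = 0.00438). A dimmer Pde1c probe set gave 0.33 (adjusted p = 0.579), and the mean over both did not pass (-0.37, adjusted p = 0.249). Pde1b lay near the negative control, with 51.1 to 104 in IMCD and 21.6 to 130 in nonIMCD (adjusted p = 0.63).

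The cAMP-specific families 4, 7 and 8 had 3 members higher, 2 lower and 3 not passing of 8. Pde8a (1376057_at), which encodes an enzyme of very high affinity for cAMP, had 2073, 2239 and 1652 in IMCD and 458, 674 and 643 in nonIMCD. It was 3.32-fold higher (1.73 ± 0.21, adjusted p = 0.00338), and its second probe set gave 1.80 ± 0.31 (adjusted p = 0.0116). Its paralog Pde8b did not pass, with 147 to 174 in IMCD and 115 to 210 in nonIMCD (0.02, adjusted p = 0.97). Pde7a (1371044_at), known from T cells, had 530, 508 and 336 in IMCD and 2732, 3255 and 2996 in nonIMCD. This was the lowest difference of any member (-2.69 ± 0.21, adjusted p = 0.000867), and the groups were far apart. Pde7b was called higher (adjusted p = 0.0227) with no array above the negative control, at 29.1 to 46 in IMCD and 8.93 to 17.4 in nonIMCD, so no fold is given. The call ended when IMCD replicate 1 or 2 was left out (adjusted p = 0.073 and 0.0674) or nonIMCD replicate 2 or 3 (adjusted p = 0.0671 and 0.0592), at a pseudocount of 64 (adjusted p = 0.0594) and with an intensity trend (adjusted p = 0.132).

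Family 4 holds the rolipram-sensitive enzymes, and its 4 genes did not move together. Pde4c (1384400_at) had 7817, 8582 and 8132 in IMCD and 4552, 3894 and 4614 in nonIMCD. The groups were well separated and the difference was 0.91 ± 0.13 (adjusted p = 0.00618), a 1.88-fold higher level. Pde4d, whose product is often found bound to AKAPs, had 159, 63.9 and 87.1 in IMCD and 488, 394 and 407 in nonIMCD for its brightest probe set (1392968_at), a difference of -1.97 ± 0.31 (adjusted p = 0.00818). Its other probe sets gave -0.78 (adjusted p = 0.0502) and 0.35 (adjusted p = 0.524), so its probe sets did not share a call. The mean over all 3 was -0.80 and passed (adjusted p = 0.0169). Pde4a had 356, 350 and 304 in IMCD and 188, 273 and 178 in nonIMCD, a separation that did not pass (0.64 ± 0.19, adjusted p = 0.0657) but did under 6 alternatives, including median centring (0.93, adjusted p = 0.0198) and the fit without nonIMCD replicate 2 (0.82, adjusted p = 0.0289). Pde4b, an inducible gene in many cells, had 4139, 2317 and 3404 in IMCD and 2784, 2574 and 2375 in nonIMCD and overlapped (0.31, adjusted p = 0.405).

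Phosphodiesterases of families 2, 3 and 10, which cleave both nucleotides, gave 1 call of 4 genes. Pde2a (1368089_at), whose product cGMP activates, had 1180, 1082 and 1093 in IMCD and 3257, 3051 and 3123 in nonIMCD. The spread within each fraction was small beside the 2.79-fold lower level (-1.48 ± 0.12, adjusted p = 0.0009). Pde3b, whose product cGMP inhibits, had 649, 1023 and 714 in IMCD and 407, 358 and 549 in nonIMCD. Its groups did not overlap, and its difference of 0.83 ± 0.24 did not pass as deposited (adjusted p = 0.0611) but passed at 1.12 under median centring (adjusted p = 0.0202) and at 1.04 after quantile normalization (adjusted p = 0.0295). Pde3a was not above the negative control on any array, and Pde10a overlapped (113 to 171 in IMCD and 109 to 145 in nonIMCD, adjusted p = 0.614).

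Genes of the cGMP-specific families 5, 6 and 9 had 3 higher, 0 lower and 4 not passing of 7. Pde6d (1388512_at), which encodes a carrier of prenylated proteins to cilia and membranes as well as a subunit of the photoreceptor enzyme, had 3109, 2783 and 3041 in IMCD and 1574, 1749 and 1841 in nonIMCD. It was higher by 0.79 ± 0.13 (adjusted p = 0.00974), with no overlap. Pde5a, the target of sildenafil, had 161, 153 and 99.7 in IMCD and 55.7, 15.2 and 31.1 in nonIMCD, where no array was above the negative control. It was at least 1.60-fold higher (adjusted p = 0.0211), and leaving out IMCD replicate 1 or 2 or nonIMCD replicate 3 ended the call (adjusted p = 0.0721, 0.0681 and 0.0597). Pde6h, the inhibitory subunit of cones, had 172, 122 and 101 in IMCD and 30, 65.5 and 19.2 in nonIMCD, again with no nonIMCD array above the negative control. It was at least 1.53-fold higher (adjusted p = 0.0323), and lost its call without any 1 of the 3 IMCD arrays (adjusted p = 0.0588 to 0.0979), without nonIMCD replicate 1 (adjusted p = 0.0977) or without nonIMCD replicate 3 (adjusted p = 0.0731). The rod subunit genes Pde6a, Pde6b and Pde6g and the high-affinity cGMP enzyme gene Pde9a did not pass (adjusted p = 0.67 to 0.936). Pde4dip, the anchoring protein myomegalin, had 765, 822 and 853 in IMCD and 573, 612 and 648 in nonIMCD (0.40 ± 0.12, adjusted p = 0.0671), and passed at 0.69 under median centring (adjusted p = 0.0101) and at 0.60 after quantile normalization (adjusted p = 0.0201).

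At the brightest probe set of each gene, the PKA calls lay in the type I regulatory subunits. Prkar1b (1389463_at), which encodes the RI-beta subunit best known from neurons, had 382, 404 and 305 in IMCD and 1746, 2124 and 1414 in nonIMCD. It was 4.64-fold lower (-2.22 ± 0.20, SE, adjusted p = 0.00143), with no overlap. Prkar1a (1388375_at), the widely expressed RI-alpha subunit, had 19352, 19711 and 20050 in IMCD and 13567, 13653 and 12859 in nonIMCD. It was higher by 0.56 ± 0.11 (adjusted p = 0.019), and its other probe sets gave 1.18 ± 0.13 (adjusted p = 0.00256) and 0.61 ± 0.17 (adjusted p = 0.0555). The first probe set did not pass when any 1 IMCD array was left out (0.55 to 0.57, adjusted p = 0.0613 to 0.0629), when nonIMCD replicate 1 or 3 was (0.57 and 0.53, adjusted p = 0.0602 and 0.0508), and after quantile normalization (0.37, 0.0701).

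The type II regulatory subunits, which most AKAPs bind, did not pass. Prkar2a had 1906, 1992 and 1805 in IMCD and 2234, 2047 and 1969 in nonIMCD (-0.13, adjusted p = 0.503), and its sign turned under median centring (0.16, adjusted p = 0.413). Its dimmer probe sets gave 0.40 and 0.13 and did not pass either (adjusted p = 0.135 and 0.643). Prkar2b had 1918, 1801 and 1980 in IMCD and 2461, 2346 and 2372 in nonIMCD, a small separation that missed the threshold (-0.33 ± 0.11, adjusted p = 0.0964), though not with dim probe sets left out (0.0429) or an intensity trend (0.0172). Neither catalytic subunit passed at its brightest probe set. Prkacb (1371835_at) had 6658, 6474 and 7014 in IMCD and 5428, 5367 and 5870 in nonIMCD (0.27 ± 0.12, adjusted p = 0.16), while its dimmer probe sets were called higher by 1.31 ± 0.27 (adjusted p = 0.0216) and 0.54 ± 0.15 (adjusted p = 0.0499). With each array centred on its median the brightest one passed too (0.56, adjusted p = 0.0184), as it did with an intensity trend. The mean over the Prkacb probe sets was also called higher. Prkaca had 1109, 770 and 782 in IMCD and 555, 1054 and 598 in nonIMCD, and the groups overlapped (0.30, adjusted p = 0.517).

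Among the AKAPs, Akap11 and Akap12 differed most, in opposite directions. Akap11 (1368427_at) encodes AKAP220, which binds aquaporin-2 and protein phosphatase 1. It had 15874, 15606 and 19161 in IMCD and 4961, 4052 and 6428 in nonIMCD. The level was 3.32-fold higher (1.73 ± 0.21, SE, adjusted p = 0.00338), and the second probe set gave 1.45 ± 0.14 (adjusted p = 0.00181). Akap12 (1368869_at) encodes gravin, a scaffold for PKA and protein kinase C at the cell membrane. It had 3112, 2485 and 3646 in IMCD and 13569, 13712 and 18908 in nonIMCD. That is 4.98-fold lower (adjusted p = 0.00151), with the second probe set at -1.98 ± 0.30 (adjusted p = 0.00734).

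Of the other AKAPs only Akap17a was called at its brightest probe set. Akap17a, which encodes a nuclear protein linked to splicing, had 1371, 1304 and 1159 in IMCD and 1863, 2431 and 1842 in nonIMCD and was called lower (-0.66 ± 0.16, adjusted p = 0.0369). Its call was lost without any 1 of the 6 arrays (-0.73 to -0.53, adjusted p = 0.0581 to 0.106), under median centring (-0.37, 0.157) and after quantile normalization (-0.59, 0.0527). Akap7, whose long delta form is known from aquaporin-2 vesicles of rat collecting duct, had 1046, 984 and 1209 in IMCD and 1415, 1251 and 1470 in nonIMCD. These groups did not overlap, and the difference did not pass (-0.35 ± 0.14, adjusted p = 0.143). Akap13 had 2349, 2382 and 2584 in IMCD and 3159, 2964 and 2954 in nonIMCD (-0.31 ± 0.12, adjusted p = 0.12), and its second probe set was called lower (-0.48 ± 0.12, adjusted p = 0.0346). Akap9, of the centrosome and Golgi, had 2572 to 2823 in IMCD and 2635 to 3017 in nonIMCD for its brightest probe set (-0.08, adjusted p = 0.707), while a dimmer one was called lower (-0.72 ± 0.13, adjusted p = 0.0129).

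Of those that overlapped, the mitochondrial anchor Akap1 had 1369, 1362 and 1334 in IMCD and 1238, 1477 and 1104 in nonIMCD (0.10, adjusted p = 0.684). Akap8 and Akap8l, of the nucleus, and Akap10, which binds both regulatory types, had differences of -0.28, -0.30 and -0.31 (adjusted p = 0.237 to 0.461). The sperm genes Akap3 and Akap4, the cilium gene Akap14, the membrane anchor Akap5 and the heart gene Akap6 did not pass either (adjusted p = 0.109 to 0.906), and Akap4 was not above the negative control on any array. The AKAP median was -0.31 as deposited, -0.02 under median centring and -0.23 after quantile normalization.

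Several members were measured by more than 1 probe set. Of 22 such genes, 14 had the same call on every probe set, 8 did not (Adcy5, Adcy6, Pde1c, Pde4d, Prkar1a, Prkacb, Akap9 and Akap13), and in 0 were probe sets called in opposite directions. For Akap11, Akap12 and Pde8a every probe set was called in 1 direction. Replacing the brightest probe set by the mean over all probe sets of a gene gave 15 members higher and 11 lower.

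**Figure D3:**
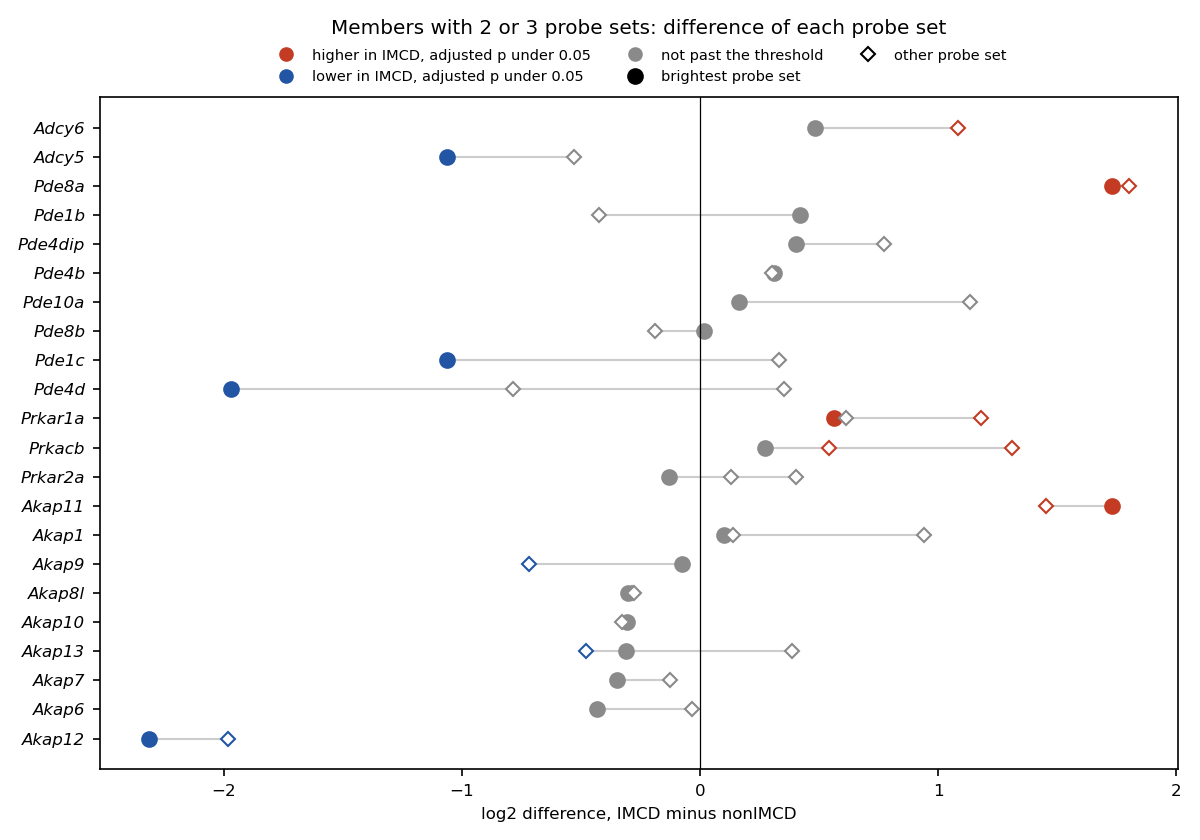
Log2 difference between IMCD and nonIMCD for each probe set of the 22 members with 2 or 3 probe sets, with large filled circles for the brightest probe set and open diamonds for the others, coloured by call. Pde8a, Akap11 and Akap12 have all their points on 1 side and called, while Pde1b, Pde1c, Pde4d, Pde8b, Prkar2a and Akap13 span both sides of 0.

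Related members can be set against each other on the same array, where the scaling cancels apart from the pseudocount. These pairs were chosen after the values were seen and are given as a description. The ratio of Pde8a to Pde7a was 21.4-fold higher in IMCD, a log2 shift of 4.42 ± 0.14 (SE, n = 3 each). The shift was 4.10 ± 0.29 for Pde1a over Pde1c, 4.04 ± 0.13 for Akap11 over Akap12 and 2.88 ± 0.38 for Pde4c over Pde4d. All ratios use the brightest probe set of each gene, and the SE does not cover differences between probe sets. The dimmer Pde1c probe set differed by 0.33 between fractions, and the dimmer Pde4d probe sets by -0.78 and 0.35, so these shifts depend on the probe set. For Prkar1a over Prkar1b it was 2.78 ± 0.19, a 6.85-fold change in the balance of the type I regulatory transcripts. Adcy6 over Adcy4 shifted by 2.60 ± 0.23 and Adcy3 over Adcy4 by 2.84 ± 0.21. Each pair sets a gene seen to lie above in IMCD over one seen to lie below, so the direction of the shift follows from the choice. A shifted ratio shows unequal change of the pair and does not say which gene changed.

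**Figure D4:**
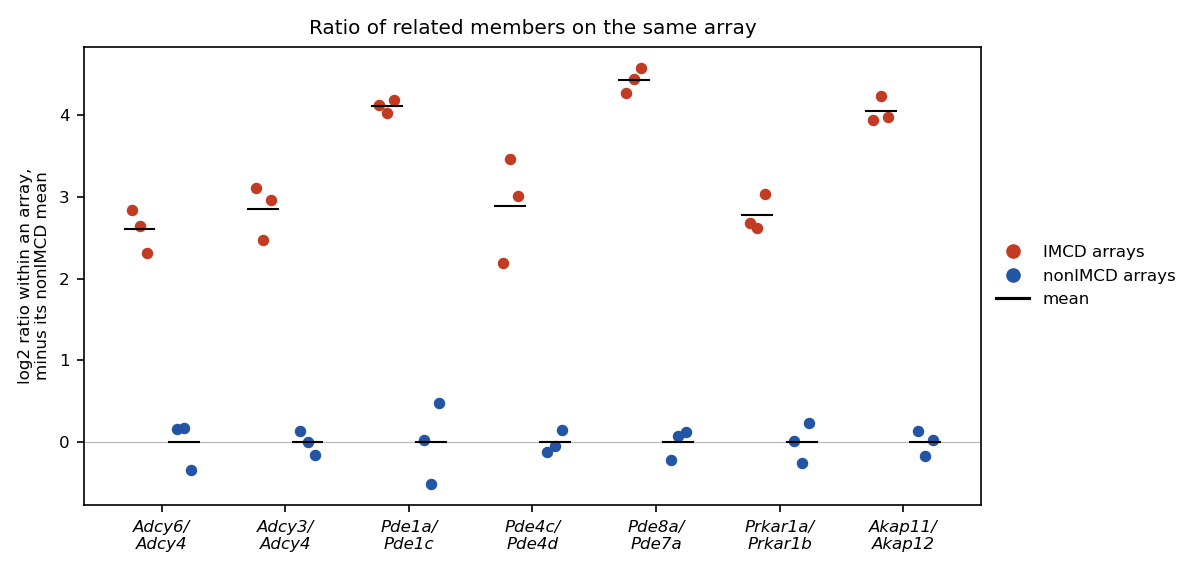
Log2 ratio of 2 related members on the same array, minus the mean of that ratio over the nonIMCD arrays, for 7 pairs, with IMCD arrays in red on the left and nonIMCD arrays in blue on the right of each pair and a black line at the mean. The IMCD points lie at 2.19 to 4.57 and the nonIMCD points at -0.51 to 0.48.

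The rest of the pathway was described by lists of 74 receptors, G proteins, PKA inhibitors, cAMP binders and targets, of which 71 were measured. Of these 71, 11 were higher and 10 lower (15.5% and 14.1%, beside a background of 10.0% and 15.7% of all genes), with a median of -0.07. Receptors that signal through cAMP or calcium had 4 higher, 4 lower and 14 not passing of 22. The V2 receptor gene Avpr2 had 11169, 11118 and 10134 in IMCD and 2539, 2553 and 2873 in nonIMCD, while the V1a receptor gene Avpr1a had 345, 353 and 394 in IMCD and 3201, 3266 and 3477 in nonIMCD. Their differences were 2.02 and -3.13 (adjusted p = 0.000493 and 0.000204). The prostaglandin E2 receptor genes Ptger1, which acts on calcium, and Ptger2, which stimulates cyclases, also differed. Ptger1 was higher by 2.38 (adjusted p = 0.000621), and Ptger2, not above the negative control on any IMCD array, was at least 3.14-fold lower (adjusted p = 0.00259). With probe sets averaged, Avpr2 had 1.35 (adjusted p = 0.00224) and Ptger1 1.26 (adjusted p = 0.0365).

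G protein genes had 0 higher, 1 lower and 11 not passing of 12. The lower gene was Gnai2, an alpha subunit that inhibits cyclases, with 2399, 2279 and 2076 in IMCD and 5126, 6872 and 3884 in nonIMCD (-1.19 ± 0.23, adjusted p = 0.017). Leaving out any 1 IMCD array ended this call (-1.24 to -1.13, adjusted p = 0.0505 to 0.0574), as did leaving out nonIMCD replicate 1 (-1.195, adjusted p = 0.0572). The stimulatory alpha subunit gene Gnas, named after its values were seen, had 28822, 31614 and 33622 in IMCD and 26898, 29421 and 29379 in nonIMCD (0.13, adjusted p = 0.509). Of 13 genes for PKA inhibitors or for cAMP binders other than PKA, 2 were higher and 1 lower. The channel Cnga1 was higher (1.63 ± 0.26, adjusted p = 0.0085). Of the PKA inhibitor genes, Pkig had 0.49 ± 0.11 (adjusted p = 0.0293) and Pkia -0.82 ± 0.18 (adjusted p = 0.0248). Pkig lost its call without any 1 of the 6 arrays (0.46 to 0.52, adjusted p = 0.0666 to 0.0944) and Pkia without any 1 array but nonIMCD replicate 2 (-0.84 to -0.72, adjusted p = 0.0666 to 0.078). Pkia also lost it under median centring (-0.53, adjusted p = 0.0807), after quantile normalization (-0.52, 0.0976) and with its probe sets averaged (-0.495, 0.487).

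Known targets and transcription factors had 5 higher, 4 lower and 15 not passing of 24. The sodium channel subunits Scnn1g and Scnn1b were higher by 2.48 and 1.67 (adjusted p = 0.000878 and 0.0035). The CREB relative Creb5 and the phosphatase inhibitor Ppp1r1b were lower, with differences of -1.38 and -1.37 (adjusted p = 0.00903 and 0.039). With its probe sets averaged, Creb5 had -2.51 (adjusted p = 0.00042). For Ppp1r1b adjusted p was 0.0931 without IMCD replicate 1, and 0.0975, 0.0891 and 0.104 without nonIMCD replicates 1, 2 and 3. It was 0.0689 under median centring, 0.0832 after quantile normalization and 0.0563 at a pseudocount of 1.

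**Figure D5:**
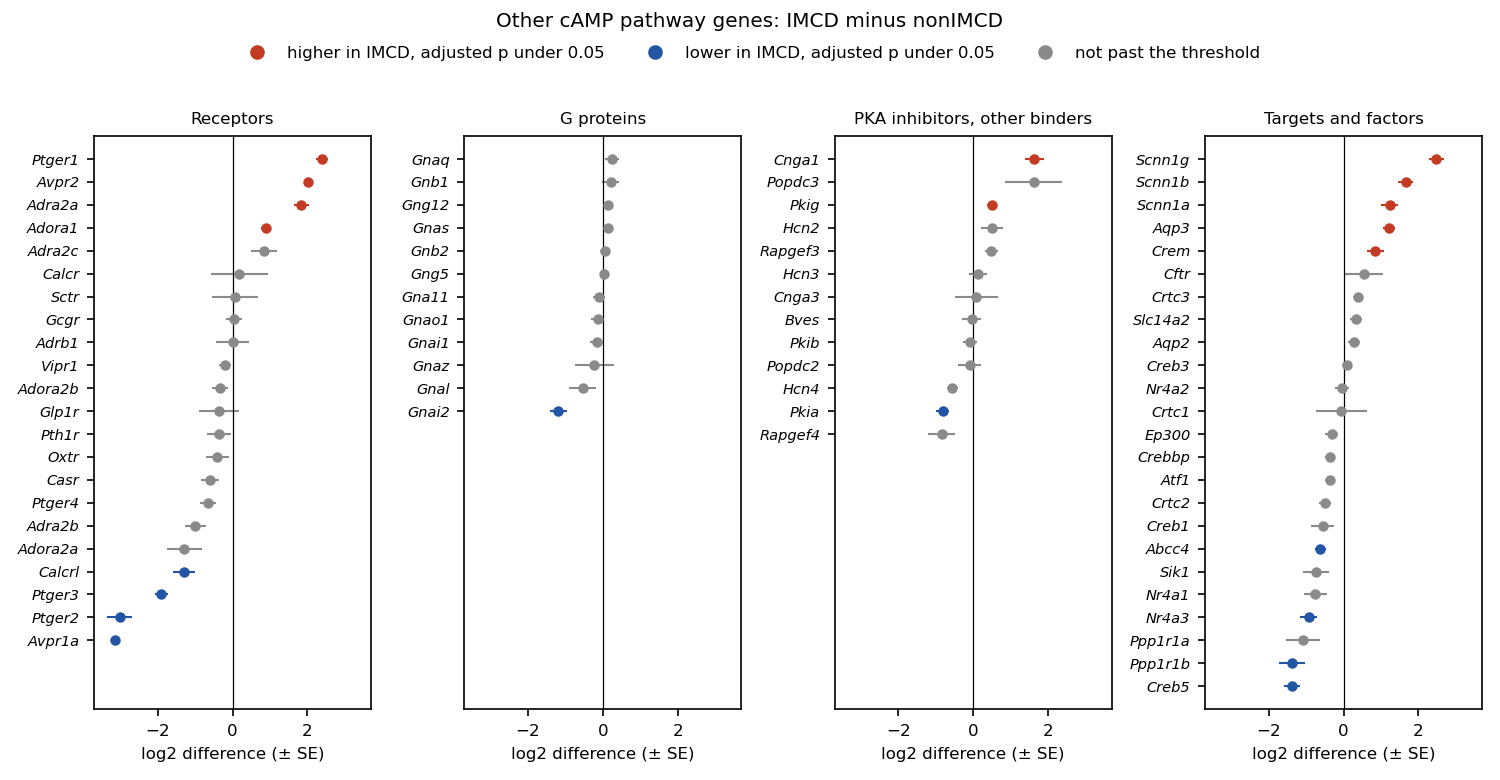
Log2 difference between IMCD and nonIMCD, with its standard error, for 71 other cAMP pathway genes in 4 lists, ordered by difference. Red points are the 11 higher genes, blue points the 10 lower and grey points those that did not pass. Of the 12 G protein genes only Gnai2 passed as deposited. Among the receptors Ptger1 and Avpr2 lie on the higher side and Avpr1a and Ptger2 on the lower.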

How the data were processed

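RNA of 6 preparations was measured on Affymetrix Rat 230 2.0 arrays, 1 array each. The authors deposited 1 intensity per probe set and array on a linear scale. The values had been scaled: the mean with 2% trimmed at each end was 1000 on every array. The names of the software used were not given in the sources used here. No detection call entered the tests. IMCD arrays had medians of 270.3 to 273 and nonIMCD arrays of 330.1 to 341. Scaling to 1 trimmed mean makes each difference relative to average brightness.

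Of 31099 probe sets, 57 controls were left out and 31042 tested, as log2(intensity + 16), which understates differences of dim genes. The test was limma 3.58.1 (R 4.3.3; lmFit and eBayes, two-sided, no covariate) on IMCD minus nonIMCD, with Benjamini-Hochberg adjustment over all probe sets and a threshold of 0.05. No filter was applied. Errors of differences are SE from the fit. The fit was checked on simulated data with independent normal noise, with differences planted only in probe sets with a mean log2 above 8. That check does not cover dim genes, pairing of arrays or scaling. The number of arrays limits the precision. Symbols come from GEO's platform annotation, which can be old. Matching 20758 of 20826 single symbols to RefSeq by gene identifier changed 0.

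The alternatives were median centring, quantile normalization, pseudocounts of 1 and 64, removal of probe sets with a mean log2 under 7, an intensity trend, the replicate number as a block, the mean over a gene's probe sets, and each array left out. A gene was counted as above the negative control on an array where its intensity was over 78.4, the highest TrpnX value. Where a whole fraction was not, the fold is a lower bound against that level. Members and lists were chosen with earlier results of these data known. By the naming rule, array values are given for up to 5 called members with the largest difference in each family and for its brightest member. Other members, and Gnas and Aqp2, were detailed after their values were seen.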

Additional observations from a re-analysis of the deposited data

How the results depend on the processing

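Under median centring 5389 probe sets were higher and 2652 lower, against 2663 and 4163 as deposited, and 15 members were higher, against 9. The mean over all probe sets of a gene also gave 15 higher members. Without 1 array, 1537 to 2248 probe sets were higher and 2647 to 3221 lower, and 5 to 9 members were higher and 8 to 10 lower. The lowest count of higher members, 5, was met without IMCD replicate 1 and without nonIMCD replicate 3. The cause was not tested, and these fits also have fewer arrays. Of the 19 called members 7 lost the call in at least 1 alternative, and of 33 uncalled members 11 gained one.

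With the replicate number as a block, 1831 probe sets were higher and 2993 lower, and 7 members higher and 9 lower. Pde6h (adjusted p = 0.0577), Prkar1a (0.06), Akap17a (0.0684), Cnga1 (0.0505), Pkia (0.0514) and Pkig (0.0722) lost their calls. Deviations of same-numbered arrays from their fraction means correlated at 0.04, 0.04 and 0.06 over all tested probe sets and at 0.14, 0.22 and 0.27 over the 16673 with a mean log2 above 8, where other pairs had -0.21 to 0.01. Every array correlated best with its own number, a hint of pairing from the data and not from the labels. Centring on the fraction means pushes other pairs below 0 where same-numbered pairs lie above it, so their low values are no separate evidence.

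No called member changed sign. Uncalled members that did were Pde6b (0.22 under median centring, 0.15 after quantile normalization), Prkar2a (0.16 under median centring, 0.13 with probe sets averaged), and Akap9 (0.21) and Akap8 (0.0126) under median centring. Averaging probe sets gave -0.0027 for Pde1b and -0.0866 for Pde8b, and a pseudocount of 1 gave -0.0078 for Akap4. Without 1 array, differences ranged from -0.11 to 1.03 for Pde6a, -0.17 to 0.79 for Pde3a, -0.0335 to 0.23 for Pde6g, -0.19 to 0.20 for Pde8b, -0.51 to 0.36 for Pde6b, -0.96 to 0.24 for Pde9a and -0.20 to 0.18 for Akap4. For these dim or near-equal members the cause was not tested. Members near the negative control varied most: within fractions their SD had a median of 0.53, against 0.21 for the 35 above it on every array.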
